A study of Mus musculus with 23 samples.

Results

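The 7 genes described here are those of the ionotropic glutamate receptors gated by kainate, Grik1, Grik2, Grik3, Grik4 and Grik5, and of their auxiliary subunits, Neto1 and Neto2. They were chosen as a gene family, with earlier results of these data known, and their Ensembl identifiers were found for 7 of 7 among the 18578 genes of the table. All 7 were among the 17118 genes with a mean of at least 10 that were tested. The study profiled brain RNA of male C57BL/6J mice by stranded mRNA sequencing, in animals heterozygous for the C456Y allele of Grin2b (HT; the sample labels write heterotype) and in wild type (WT), each with and without foot-shock. Grin2b encodes the GluN2B subunit of NMDA receptors, and the HT mice carry 1 edited and 1 unedited copy in every cell, so the allele is not restricted to a cell type. There were 6 HT shock, 6 HT control, 5 WT shock and 6 WT control libraries. The sample labels give postnatal day 17 and the series text gives adult mice, so the age was not resolved, and the part of the brain sampled was not named. Nothing in the labels assigns the libraries to different animals, and the p-values therefore reflect library-to-library spread only, part of which may be technical.

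Kainate receptors are tetrameric cation channels opened by glutamate. GluK1, GluK2 and GluK3, encoded by Grik1, Grik2 and Grik3, can form channels by themselves, whereas GluK4 and GluK5, encoded by Grik4 and Grik5, bind agonists with high affinity and need GluK1, GluK2 or GluK3 to make a channel. Neto1 and Neto2 are single-pass membrane proteins with CUB domains that bind the receptors and slow their currents, and Neto1 has also been found with NMDA receptors. In the forebrain these receptors are best known for the slow synaptic current at hippocampal mossy fibre synapses and for the control of transmitter release from axon terminals.

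The 7 genes are annotated as protein coding on GRCm38. Grik5 (ENSMUSG00000003378) lies on the minus strand of chromosome 7, from 25009849 to 25072346. Neto2 (ENSMUSG00000036902) is on the minus strand of chromosome 8, from 85636588 to 85700924. Grik2 (ENSMUSG00000056073) is on the minus strand of chromosome 10, from 49094833 to 49788766. The longest annotated transcripts of the 7 genes differ widely in base composition. GC made up 61.7% of this transcript for Grik5, 54.2% for Grik3, 52.2% for Grik4 and 47.9% for Grik1. It made up 39.6% for Neto1, 37.9% for Grik2 and 36.5% for Neto2.

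The 250 bases before the RefSeq start of Grik5, Neto2 and Grik2 are shown because the differences between groups described below centre on these 3 genes. Sequences are from RefSeq (GRCm38.p6), written along the minus strand of chr7:25072370-25072619 for Grik5, chr8:85700925-85701174 for Neto2 and chr10:49788755-49789004 for Grik2. Capitals mark the GC box, searched as GGGCGG or CCGCCC on the printed strand, which covers both strands.
Grik5: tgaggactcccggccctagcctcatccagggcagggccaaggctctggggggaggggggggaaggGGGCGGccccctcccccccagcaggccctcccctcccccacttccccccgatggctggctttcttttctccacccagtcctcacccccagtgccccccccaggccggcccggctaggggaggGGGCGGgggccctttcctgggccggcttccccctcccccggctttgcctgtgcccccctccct
Neto2: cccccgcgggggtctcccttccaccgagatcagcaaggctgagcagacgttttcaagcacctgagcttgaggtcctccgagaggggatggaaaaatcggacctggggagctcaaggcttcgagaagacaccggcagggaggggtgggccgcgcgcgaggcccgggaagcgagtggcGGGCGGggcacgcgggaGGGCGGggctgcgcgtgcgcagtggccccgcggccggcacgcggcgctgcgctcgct
Grik2: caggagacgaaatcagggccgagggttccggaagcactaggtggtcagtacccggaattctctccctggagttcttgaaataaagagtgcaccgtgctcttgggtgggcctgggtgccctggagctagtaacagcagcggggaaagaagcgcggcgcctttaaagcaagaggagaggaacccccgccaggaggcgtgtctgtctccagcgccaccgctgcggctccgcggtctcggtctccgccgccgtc
Grik5 had 2 GC boxes, 8 CpG dinucleotides and 75.2% GC in this window. Neto2 had 2 GC boxes, 30 CpG and 72.0% GC. Grik2 had no GC box, 20 CpG and 62.8% GC. Among 32851 such windows, 32.7% held a GC box, and the medians were 6 CpG and 52.4% GC. Neither the cAMP response element TGACGTCA nor the TATA box TATAAA, each searched on both strands, occurred in these 3 windows, and they occurred in 1.5% and 12.4% of all windows.

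Totals per library lay between 30.98 and 32.57 M normalised counts (M, mega). Normalised totals say nothing of read depth, which is unknown. The median correlation of a library with the others of its group was between 0.986 and 0.990. HT control replicate 6 stood apart from its group in how its values varied with the GC content of genes. The slope of all genes on GC, in log2 units per 10 percentage points, was 0.165 in that library, against a median of -0.0048 over the HT control libraries. By group the slope was 0.0018 to 0.0852 in HT shock (median 0.0721), -0.0675 to 0.165 in HT control, -0.0589 to 0.0087 in WT shock (median -0.0183) and -0.108 to 0.0031 in WT control (median -0.0538). The slope thus moved with the groups, and the 7 genes differ in GC. The differences that matter most below are therefore also given after a correction of every library for gene GC content and transcript length. The correction removes any group difference that follows GC content or length, whether technical or biological. These sources cannot be told apart here. Of the general neuronal markers 8 of 8 were detected, and no marker of the 12 cell type and region lists was at 0 in a library. Grin2b averaged 10700 ± 655 in HT shock, 12300 ± 1678 in HT control, 12830 ± 1389 in WT shock (SD, n = 6, 6 and 5) and 13620 ± 1019 in WT control (SD, n = 6), and these values do not separate the edited from the unedited allele.

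All 7 genes were expressed in every library, and the most abundant per length by a wide margin was Grik5. Levels between genes were compared as normalised counts per kb of annotated exons. Grik5 averaged 1441 ± 114 per kb (SD, n = 23 libraries) and was above all other members in every library, with a range of 1298 to 1730. Grik3 followed with 440 ± 22.3 per kb. Neto2 averaged 347 ± 49.4 and Neto1 329 ± 32.9 per kb, and their ranges of 248 to 416 and 270 to 415 overlapped almost wholly. Both also reached into the range of Grik3, which was 389 to 491 per kb. Grik2 averaged 195 ± 16.8, Grik4 129 ± 7.95 and Grik1 78.1 ± 5.21 per kb, and the ranges of these 3 genes overlapped neither each other nor those of the 4 genes above. The order and separation of the lower members depended on the length used. Divided by the longest annotated transcript, Grik1 averaged 144 and Grik4 130 per kb, and their ranges overlapped. By that length Grik2 ran from 233.7 to 314.5 per kb. It then overlapped with Neto1 (270.1 to 415.1) and Neto2 (271.1 to 454.7).

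**Figure D1:**
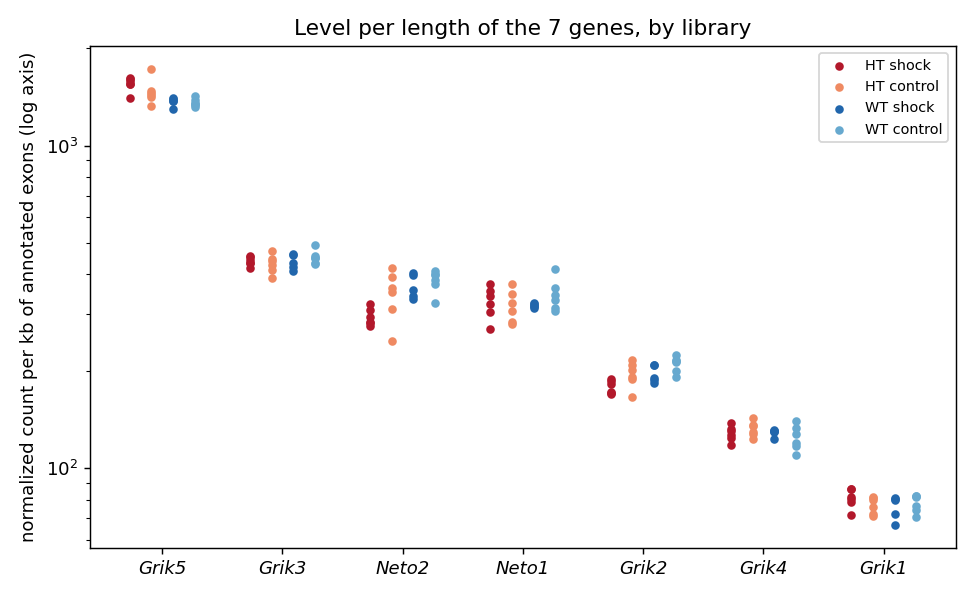
Normalised count per kb of annotated exons (log axis) for the 7 genes, ordered by their mean over 23 libraries; each point is 1 library, coloured by group. Grik5 lies between 1298 and 1730 per kb, above all other members, while Neto2 and Neto1 overlap and Grik1 is lowest at 66.9 to 86.4 per kb.

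Variation within groups was largest for the 2 Neto genes. The coefficient of variation within groups was 10.9% for Neto2 and 9.83% for Neto1, against 5.14% for Grik3 and 5.67% for Grik5. Grik4 had 6.11%, Grik2 6.60% and Grik1 6.83%. From the lowest to the highest library the ratio was 1.68 for Neto2 and 1.54 for Neto1, and it was at most 1.35 for the 5 receptor subunits.

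The comparison of genotypes after foot-shock gave the only calls among the 7 genes. Grik5, the high-affinity subunit GluK5, was higher in HT shock than in WT shock and Neto2 was lower, whereas the other 5 genes did not pass the threshold. These were 2 of 7 members called at an adjusted p under 0.05 (limma, Benjamini-Hochberg over 17118 genes), against a background of 9.28% of all genes tested. With the correction for GC content and length 1 of 7 was called, against 5.26% of all genes. At an unadjusted p under 0.05 there were 3 of 7, Grik2 being the third, against 27.9% of all genes. By direction, 1 of 7 was higher, against 3.95% of all genes, and 1 of 7 was lower, against 5.33%. The median difference over the 7 genes was 0.0063 on the log2 scale, and over all genes it was 0.0037.

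Grik5 had a normalised count of 7269.9 at the lowest, 8113 at the median and 8376 at the highest of the 6 HT shock libraries. In the 5 WT shock libraries it had 7197, 7112, 6710.0, 7094 and 7235. All 6 HT shock libraries were thus above all 5 WT shock libraries, with HT shock replicate 6 nearest to them. The means were 8032 ± 399 in HT shock and 7070 ± 209 in WT shock (SD), or 1.14-fold, with a log2 difference of 0.18 ± 0.05 (SE, limma adjusted p = 0.0230). After correction for GC content and length the difference was 0.14 ± 0.04 (limma adjusted p = 0.0302), so that Grik5 still passed.

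Neto2, the auxiliary subunit, had 1689 at the lowest, 1773 at the median and 1979 at the highest in HT shock. In WT shock it had 2102, 2474, 2440, 2195 and 2047. No HT shock library reached the lowest WT shock library. The means were 1806 ± 111 in HT shock and 2252 ± 195 in WT shock (SD), with a log2 difference of -0.32 ± 0.09 (SE, limma adjusted p = 0.0345), or a ratio of 0.803. After correction for GC content and length the difference was -0.13 ± 0.05 (limma adjusted p = 0.136), and Neto2 no longer passed. Grik5 and Neto2 were the 2 of 7 members whose groups did not overlap in this comparison, against 8.57% of all genes.

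Grik2, which encodes GluK2, a subunit of the receptors behind the slow mossy fibre current, had 2249 at the lowest, 2353 at the median and 2508 at the highest in HT shock, and 2442, 2762, 2773, 2528 and 2489 in WT shock. The 2 groups overlapped, since 2 HT shock libraries, at 2471 and 2508, were above the lowest WT shock library. Grik2 differed by -0.13 ± 0.06 on the log2 scale (95% interval -0.25 to -0.02, limma adjusted p = 0.119). With library weights Grik2 passed, at -0.13 (limma adjusted p = 0.0394), so that 3 of 7 genes were called, against 22.1% of all genes. Its sign turned after correction for GC content and length, to 0.07 ± 0.04 (limma adjusted p = 0.304).

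The remaining 4 genes, Grik1 (ENSMUSG00000022935, chromosome 16), Grik3 (ENSMUSG00000001985, chromosome 4), Grik4 (ENSMUSG00000032017, chromosome 9) and Neto1 (ENSMUSG00000050321, chromosome 18), overlapped between HT shock and WT shock. Grik1, encoding GluK1, averaged 543 ± 36.9 in HT shock and 511 ± 42.0 in WT shock, a log2 difference of 0.09 (95% interval -0.04 to 0.22). Grik3, encoding the low-affinity subunit GluK3, averaged 3937 ± 127 in HT shock and 3923 ± 209 in WT shock, a difference of 0.01 (interval -0.09 to 0.10). Grik4, encoding GluK4, averaged 766 ± 42.2 in HT shock and 768 ± 19.6 in WT shock, a difference of -0.01 (interval -0.13 to 0.11). The intervals of Grik3 and Grik4 thus reached no farther than 0.13 from 0 on the log2 scale. After the correction the differences were 0.11 for Grik1, 0.08 for Grik3 and 0.05 for Grik4, which turned its sign, and none of them passed. Neto1 averaged 2736 ± 306 in HT shock and 2673 ± 42.1 in WT shock, a difference of 0.03 (interval -0.14 to 0.19). The Neto1 libraries of WT shock were tightly grouped, from 2624 to 2727, whereas those of HT shock ran from 2256 to 3102. After the correction the difference in Neto1 was 0.21 ± 0.11 (limma adjusted p = 0.263).

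**Figure D2:**
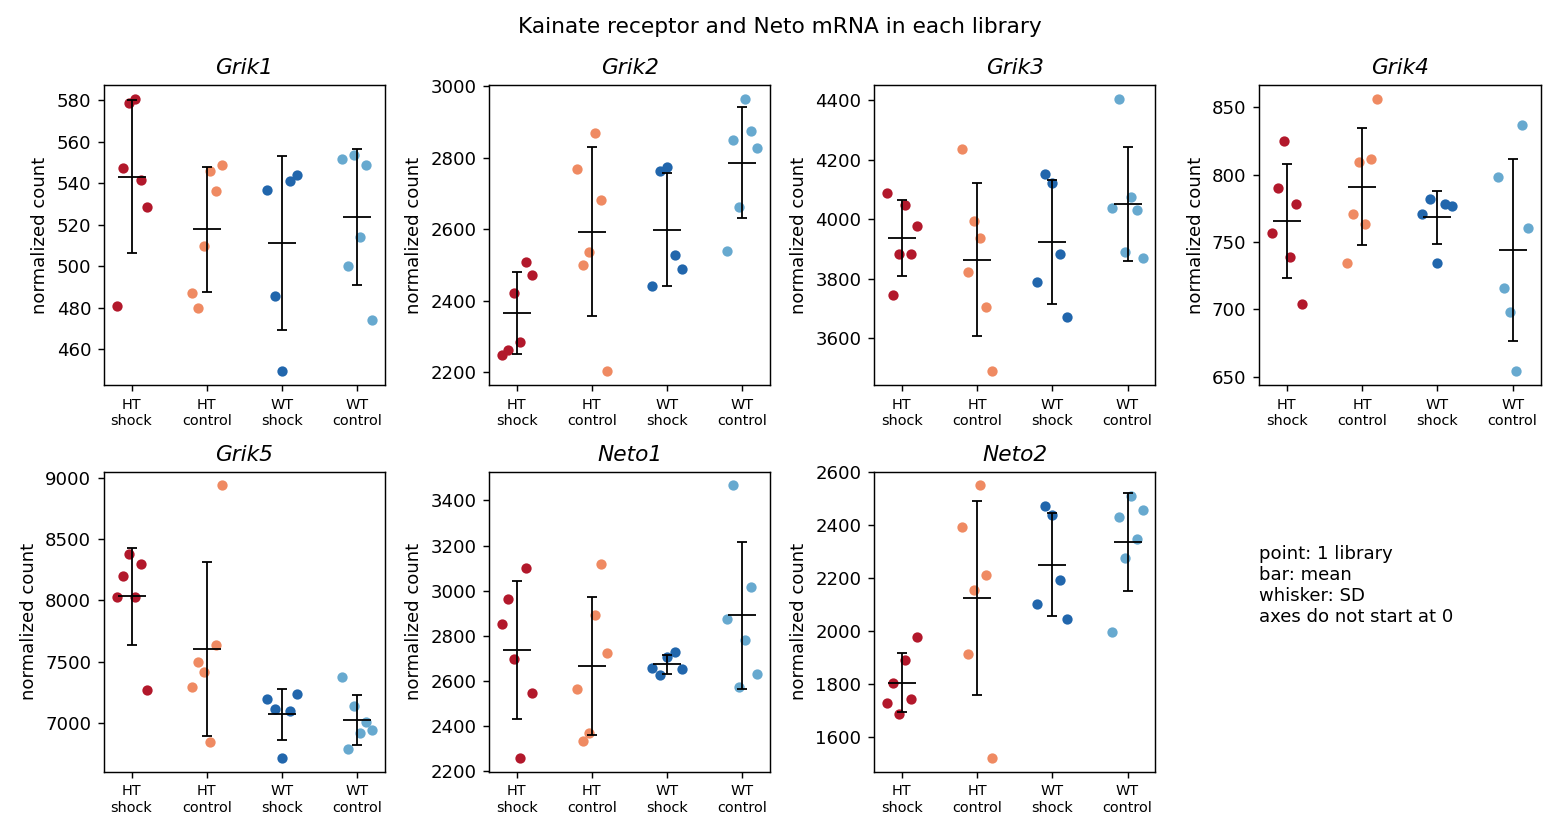
Normalised count of each of the 7 genes in each library (points), with group mean (bar) and SD (whisker); the vertical axes differ between panels and do not start at 0. For Grik5 every HT shock point is above every WT shock point, for Neto2 every HT shock point is below every WT shock point, and the orange HT control point at 8941 for Grik5 and 1521 for Neto2 is replicate 6.

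The calls rested on several single libraries. Without HT shock replicate 1, 2 or 3, or without WT shock replicate 3, 0 of the 7 genes passed (limma), with adjusted p for Grik5 between 0.0517 and 0.0587. Calls over all genes fell in the same omissions, to 2.47% without HT shock replicate 1, 2.90% without replicate 2, 3.35% without replicate 3 and 4.22% without WT shock replicate 3. Without HT shock replicate 4 or 5, or WT shock replicate 1, 2 or 4, Grik5 alone passed. Calls over all genes were 4.9% and 8.26% without HT shock replicates 4 and 5. They were 4.41%, 3.57% and 7.23% without WT shock replicates 1, 2 and 4. The log2 difference itself moved little, from 0.16 to 0.21 for Grik5 and from -0.35 to -0.28 for Neto2 over all 23 omissions.

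Without shock the genotypes showed no called member. In HT control against WT control 0 of 7 genes passed (limma), against a background of 0.0% over all genes. At an unadjusted p under 0.05 there was 1 of 7, Grik5, against 11.1% of all genes. Grik5 had 6845 at the lowest, 7455 at the median and 8941 at the highest in HT control, against 6788, 6970 and 7371 in WT control. These ranges overlapped, with a log2 difference of 0.11 ± 0.05 (95% interval 0.02 to 0.20, limma adjusted p = 0.404). Neto2 had 1521.0, 2185 and 2551 in HT control, against 1999, 2391 and 2512 in WT control, with a difference of -0.15 (interval -0.33 to 0.03, limma adjusted p = 0.511). After the correction for GC content and length the difference was 0.07 for Grik5 and -0.05 for Neto2. All 7 genes overlapped between these groups, which 0.421% of all genes did not. HT control replicate 6 held both the highest Grik5 and the lowest Neto2 value among all 23 libraries. For the other 5 genes the differences lay between -0.12 for Neto1 and 0.09 for Grik4, with limma adjusted p of at least 0.463.

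Foot-shock within HT mice gave no call with all libraries, and 3 calls without 1 library. Between HT shock and HT control 0 of 7 genes passed (limma), against a background of 0.0%, and 2 of 7, Neto2 and Grik2, had an unadjusted p under 0.05, against 13.7% of all genes. Neto2 averaged 1806 ± 111 in HT shock and 2125 ± 366 in HT control (SD, n = 6 each), a log2 difference of -0.22 ± 0.09 (limma adjusted p = 0.313). Grik2 averaged 2366 ± 114 in HT shock and 2593 ± 236 in HT control, a difference of -0.13 ± 0.05 (limma adjusted p = 0.323). Grik5 averaged 8032 ± 399 in HT shock and 7603 ± 709 in HT control, a difference of 0.08 ± 0.05 (limma adjusted p = 0.412). All 7 genes overlapped between these groups, which 0.286% of all genes did not. Without HT control replicate 6 all 3 passed, as did 12.1% of all genes. The differences were then -0.31 for Neto2, -0.17 for Grik2 and 0.13 for Grik5 (limma adjusted p = 0.00642, 0.0186 and 0.0177). With that library left out and GC content and length corrected, 0 of 7 passed (limma), against 2.95% of all genes, with -0.15 for Neto2, 0.02 for Grik2 and 0.08 for Grik5.

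Foot-shock within WT mice moved none of the 7 genes past the threshold. In WT shock against WT control 0 of 7 passed (limma), against a background of 0.0%, and 0 of 7 had an unadjusted p under 0.05, against 3.72% of all genes. Grik5 averaged 7070 ± 209 in WT shock and 7025 ± 204 in WT control, with a difference of 0.01 (95% interval -0.09 to 0.11). Neto2 averaged 2252 ± 195 in WT shock and 2338 ± 186 in WT control, with a difference of -0.05 (interval -0.24 to 0.14). For Grik2 the means were 2599 ± 157 in WT shock and 2786 ± 156 in WT control, and the difference was -0.10 (interval -0.22 to 0.02). All 7 genes overlapped between these groups, which 0.374% of all genes did not. The 4 other genes had differences between -0.11 for Neto1 and 0.05 for Grik4.

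Whether foot-shock acted differently in the 2 genotypes was tested as an interaction, the shock difference in HT minus that in WT. None of the 7 genes passed (0 of 7, limma, against a background of 0.0%), and 0 of 7 had an unadjusted p under 0.05, against 6.43% of all genes. The values were -0.16 ± 0.13 for Neto2, 0.14 ± 0.11 for Neto1 and 0.07 ± 0.07 for Grik5 (SE, limma adjusted p between 0.820 and 0.847). The calls after shock are therefore not shown to differ from the comparison without shock. The 4 pairwise comparisons share groups, so their values are not independent of each other.

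**Figure D3:**
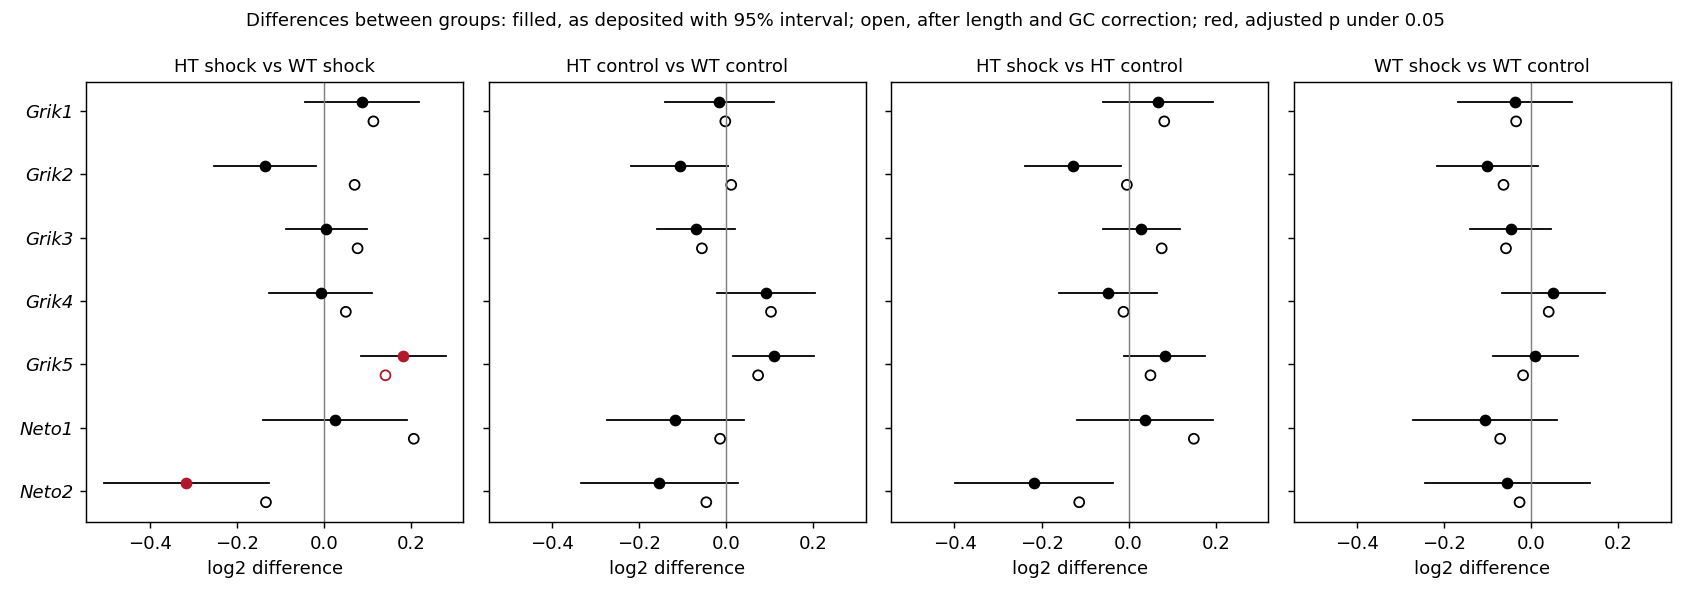
Log2 difference of each gene in 4 comparisons; filled points are the deposited values with a 95% interval, open points the values after correction for GC content and length, and red marks an adjusted p under 0.05. For HT shock against WT shock, Grik5 is red both ways, Neto2 only as deposited, and the point of Grik2 lies at -0.13 as deposited and at 0.07 corrected.

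The makeup of the receptor transcripts was described by ratios of levels per kb, without a test. Grik5 made up 65.3% ± 1.2 of the summed level of the 5 subunits in HT shock, 63.7% ± 2.91 in HT control, 62.0% ± 1.33 in WT shock and 61.1% ± 1.2 in WT control (SD). The 2 high-affinity subunits together, Grik4 and Grik5, came to 70.6%, 69.4%, 67.8% and 66.7% in the same 4 groups. In HT shock their share ran from 68.3% to 72.0%, and in WT shock from 65.9% to 69.3%, so these ranges overlapped. Grik5 stood at 8.72 times Grik2 in HT shock, 7.63 times in HT control, 7.0 times in WT shock and 6.49 times in WT control. Grik4 stood at 0.083 of Grik5 in HT shock, with a range of 0.080 to 0.085, at 0.090 in HT control (0.083 to 0.097), at 0.094 in WT shock (0.093 to 0.095) and at 0.092 in WT control (0.082 to 0.104). The range in each control group reached into those of both shock groups. Neto1 stood at 1.12 times Neto2 in HT shock, 0.944 times in HT control, 0.876 times in WT shock and 0.912 times in WT control. Neto1 thus exceeded Neto2 on average in HT shock only, and the ranges of this ratio, 0.875 to 1.31 in HT shock and 0.778 to 0.951 in WT shock, overlapped. The ratios of genes that differ in GC carry the slope described above, and they were not corrected for it.

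**Figure D4:**
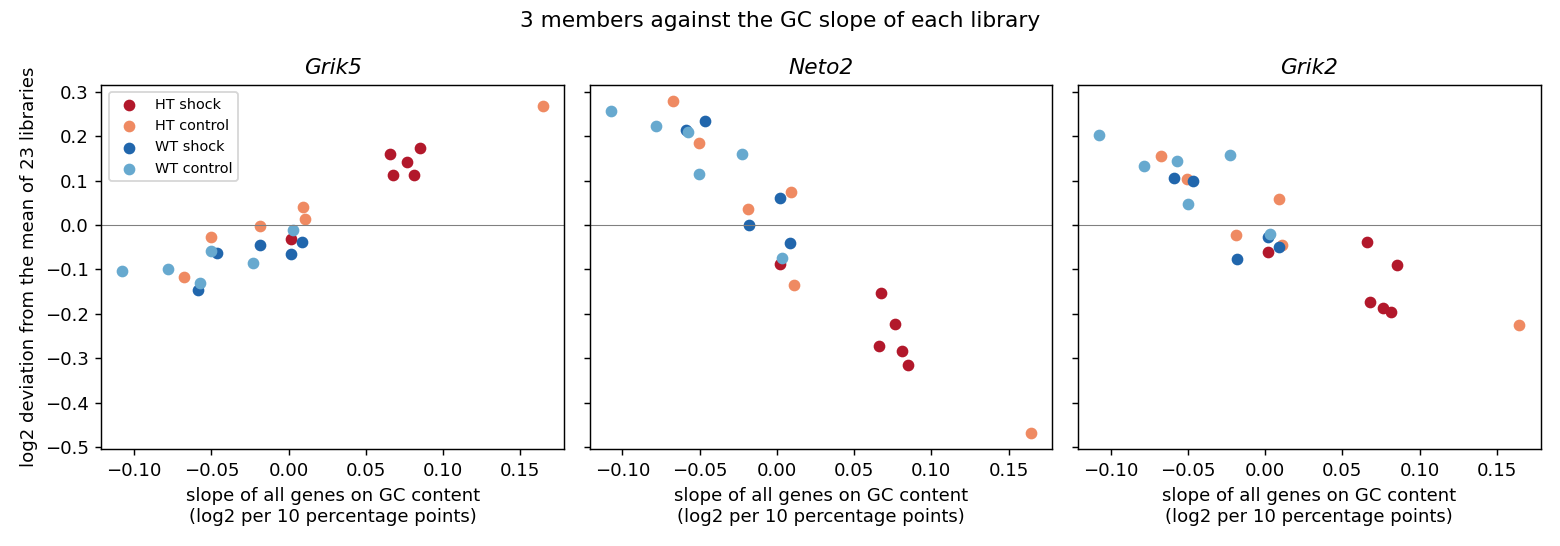
Log2 deviation of Grik5, Neto2 and Grik2 from their mean over 23 libraries (vertical) against the slope of all genes on GC content in the same library (horizontal, log2 per 10 percentage points); each point is 1 library, coloured by group. Libraries with a higher slope have more Grik5 and less Neto2 and Grik2, and HT control replicate 6 is at the far right at 0.165.

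Across libraries within groups, Neto2 and Grik5 mirrored each other in the deposited values. Likeness was measured as the Pearson correlation of log2 deviations from the group means over 23 libraries, among 14070 other genes with a mean of at least 50, as a description. The libraries share the GC slope, which enters these correlations. Neto2 and Grik5 had a correlation of -0.876, and Grik5 ranked 14062 of 14070 in likeness to Neto2. Grik2 and Neto2 had a correlation of 0.868, and Neto2 ranked 8 of 14070 in likeness to Grik2. After correction for GC content and length these values were -0.397 for Neto2 with Grik5 and 0.072 for Neto2 with Grik2. Grik5 and Grik2, a subunit pair known to assemble into one receptor, had -0.738 as deposited and 0.562 after correction. Grik2 and Neto1 had 0.209 as deposited and 0.694 after correction. The sign or size of most of these relations therefore depended on the correction.

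The genes most like each member were drawn from the whole table. For Grik5 they were Rnf167 (0.936), Uchl1 (0.930) and Txnrd2 (0.927). For Neto2 they were Psd3 (0.959), Map4 (0.949) and Necab1 (0.947), and for Grik2 Wwtr1 (0.900), Trak2 (0.891) and Fam49a (0.890). Among these, Rnf167 encodes a ubiquitin ligase, Uchl1 a neuronal ubiquitin hydrolase, Map4 a microtubule-associated protein and Trak2 an adaptor for mitochondrial transport. Grik3 was most like Slc6a17 (0.853) and Mfsd6 (0.838), and Grik4 most like Supt4a (0.817), Ppp4c (0.816) and Chmp7 (0.805). The highest values were lower for Grik1, with Psmb10 (0.783), Pllp (0.750) and Tcta (0.748), and for Neto1, with Phf5a (0.768), Stk36 (0.754) and Ttll11 (0.710).

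Genes whose proteins bind, anchor, move or modify kainate receptors formed a list of 27, of which 26 were in the table and tested. After shock, 2 of 26 rose and 1 fell in HT against WT (limma), against 3.95% and 5.33% of all genes. The median difference over the 26 genes was -0.0145, beside 0.0037 over all genes. Dlg3, which encodes the synaptic scaffold SAP102, averaged 6347 ± 237 in HT shock and 5723 ± 186 in WT shock (log2 difference 0.15 ± 0.04, limma adjusted p = 0.0234). Nrxn3, a presynaptic adhesion molecule linked to kainate receptors through C1q-like proteins, averaged 7176 ± 171 in HT shock and 8311 ± 516 in WT shock (-0.21 ± 0.06, limma adjusted p = 0.0343). After correction for GC content and length 3 of 26 passed, against 5.26% of all genes. Dlg3 and Snap25 were among them, but not Nrxn3. In each of the other 4 comparisons 0 of 26 passed (limma), against 0.0% of all genes. At an unadjusted p under 0.05 there were 5 of 26 in HT control against WT control, beside 11.1% of all genes. In HT shock against HT control there were 3, beside 13.7%, and in WT shock against WT control 0, beside 3.72%. The interaction had 1, beside 6.43%. The smallest unadjusted p belonged to C1ql2 and Prkca in HT control against WT control (differences -0.28 and -0.14), to Rab11a and Dlg3 in HT shock against HT control (-0.12 and 0.09) and to Pick1 and Cul3 in WT shock against WT control (0.09 and -0.08). In the interaction Dlg3 had a difference of 0.11. Without HT control replicate 6, 5 of 26 passed in HT shock against HT control, against 12.1% of all genes. When GC content and length were corrected as well 2 of 26 passed, against 2.95%.

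Markers of cell types and regions moved in the same comparison as Grik5 and Neto2. Of the markers of striatal projection neurons, 9 of 12 fell in HT shock against WT shock, among them Adora2a, Drd1 and Drd2, and their summed normalised count was 30407 to 44825 in HT shock, 39178 to 49677 in HT control, 49562 to 50500 in WT shock and 49957 to 55585 in WT control. Of the markers of forebrain glutamatergic neurons 5 of 10 rose, among them Slc17a7 and Neurod6, with sums of 103370 to 115263 in HT shock, 100666.0 to 107445 in HT control, 97796 to 109790.3 in WT shock and 100582 to 108534 in WT control. Of the oligodendrocyte markers 6 of 10 fell, including Mbp and Mag, with sums of 186814 to 233554 in HT shock and 225502 to 283604 in WT shock. Among these 3 lists only the striatal sums did not overlap between HT shock and WT shock. Of the thalamic markers 3 of 10 fell, with sums of 18037 to 22000 in HT shock and 21244 to 24058 in WT shock. Of the astrocyte markers 2 of 8 fell, with sums of 105584 to 119774 in HT shock and 122107 to 128097 in WT shock, which did not overlap. Of the hippocampal markers 2 of 10 rose and 1 fell, and their sums, 14227 to 14815 in HT shock and 13277 to 13829 in WT shock, did not overlap. Of the interneuron markers 3 of 12 rose and 1 fell. Pan-neuronal markers had 1 of 8 higher and 1 lower. None of the cerebellar (10), oligodendrocyte precursor, microglial or endothelial markers (8 each) passed the threshold (0 called, limma), though 5, 1, 0 and 3 of them had an unadjusted p under 0.05. These counts stand beside 3.95% of all genes called higher, 5.33% called lower and 27.9% at an unadjusted p under 0.05. The striatal sums did not overlap without shock either, those of HT control being below those of WT control. In that comparison 12 of 12 striatal markers had a negative difference and 0 passed the threshold (limma). At an unadjusted p under 0.05 there were 10 of 12, against 11.1% of all genes. The part of these shifts in the Grik5 and Neto2 differences was not tested. In bulk tissue, fewer cells of a type and less RNA per cell cannot be told apart.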

How the data were processed

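The authors deposited 1 table of normalised counts with decimals (a signal per gene and library, not raw counts), for 18578 genes. Per the submitters' processing notes, Salmon 1.1.0, R 3.6.2, DESeq2 1.26.0 and GRCm38 were named, with no roles given. The table had 24 library columns, of which 1 was left out because no label matched it. Libraries were grouped by their titles. Values were analysed as log2(normalised count + 1) for 17118 genes with a mean of at least 10, since normalised values allow no count test. Limma 3.58.1 (R 4.3.3, statmod 1.5.0) fitted the 4 groups together with trend and robust moderation, with Benjamini-Hochberg adjustment over all genes per comparison and a threshold of 0.05. Fold changes are on that log2 scale. Depth is unknown, so no counting error was computed. The correction for GC content and length removed, per library, splines with 4 degrees of freedom in each. Lengths and GC, the latter of the longest transcript of each gene, came from GENCODE annotation of GRCm38, matched for 18563 genes. Alternatives covered centring, filters (none, or 20 in at least 5 libraries), fits of the compared groups alone, pseudocounts (0.5 or 5), library weights, the replicate block, a threshold of 0.1 and leaving out each library in turn. The model was tested on simulated data. Named genes were the 7 members, Grin2b, called partner genes or else the 2 of smallest p, called markers, and the 3 genes most like each member. A few of these genes are left out of the text. Members and lists were chosen with earlier results of these data known. Promoters were taken for 5 of the 7 genes. Member windows on chromosome 18, which holds Neto1, were left out by rule, and none was found for Grik1. Figures were drawn with matplotlib 3.10.9.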

Additional observations from a re-analysis of the deposited data

Results flagged for a closer look

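Among the 28 combinations of 7 genes and 4 groups, 3 held a library far from the others of its group by Dixon's gap test. That test flags about 1 in 20 by chance. The combinations are not independent, since they share libraries, and WT shock replicate 3 was flagged for both Grik4 and Grik5. The share of all genes flagged was not computed, so an excess over chance was not measured. Grik5 in HT shock replicate 6 was 7269.9, below the next lowest library of the group at 8026. The same library had the lowest GC slope of its group, 0.0018. Without it the Grik5 difference of HT shock against WT shock was 0.21 on the log2 scale (limma adjusted p = 0.00835). Grik5 in WT shock replicate 3 was 6710.0, below the next lowest at 7094. Without it the Grik5 difference was 0.16 (limma adjusted p = 0.0587). Grik4 in WT shock replicate 3 was 734.0, below the next lowest at 771.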

How the results depend on the processing

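In HT shock against WT shock the number of the 7 genes called, 2, became 0 with the replicate block by title numbers, 1 (Grik5) with the replicate block by bracketed library numbers, 1 (Grik5) with the length and GC correction, 0 with block and correction together, and 1 (Grik5) with the correction and HT control replicate 6 left out, an alternative chosen after seeing the data. Library weights raised it to 3, with Grik2. Of all genes, 2.63% were called with the title block, 5.7% with the bracketed block and 5.26% with the correction. Block and correction together called 2.98% of all genes. The correction with HT control replicate 6 left out called 9.17%, and library weights called 22.1%. With the title block the log2 differences were 0.18 for Grik5 (limma adjusted p = 0.0609) and -0.2991 for Neto2 (limma adjusted p = 0.0786). Deviations of same-numbered libraries of different groups had correlations from -0.154 to 0.194 (median 0.0157, 33 pairs). Differently numbered libraries had -0.168 to 0.231 (median 0.0037, 165 pairs). Correlations over all genes cannot exclude a pairing that touches few genes, so whether the numbers pair the libraries was not resolved. Leaving out 1 library gave 0 to 2 calls there, beside 2.47% to 17.1% of all genes. In HT shock against HT control it gave 0 to 3, beside 0.0% to 12.1% of all genes. Library weights also gave 3 in that comparison (Grik5, Neto2 and Grik2), beside 16.3% of all genes. The other 3 comparisons kept 0 called members under every alternative.

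Signs turned with the length and GC correction, with the block and correction, and with the correction without HT control replicate 6 as follows. In HT shock against WT shock, Grik2 became 0.0711, 0.0711 and 0.0717, and Grik4 0.0509, 0.0477 and 0.0509. In HT control against WT control, Grik2 became 0.0117 with and without the block. Without that library, in HT shock against HT control, Grik2 became 0.0191 and Grik4 0.0259. In WT shock against WT control, Grik5 became -0.0184, -0.0167 and -0.0185. In the interaction, Grik2 became 0.0593, 0.0593 and 0.0817. Median centring gave -0.0002 for Grik3 in HT shock against WT shock. Omitting 1 library turned signs near 0. The ranges in HT shock against WT shock were -0.0172 to 0.0272 for Grik3, -0.0286 to 0.0173 for Grik4 and -0.0118 to 0.08 for Neto1. Elsewhere they were -0.0441 to 0.0056 for Grik1 in HT control against WT control, -0.0002 to 0.0916 for Neto1 in HT shock against HT control, -0.0646 to 0.0091 for Grik1 and -0.0007 to 0.0278 for Grik5 in WT shock against WT control, and -0.0737 to 0.0023 for Grik2 in the interaction.

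Over all genes, the 1589 called in HT shock against WT shock (676 higher, 913 lower) became 901 with the correction (479 higher, 422 lower), 450 and 976 with the title and bracketed blocks, 510 with block and correction, 2932 with the compared groups alone, 3775 with library weights, 3092 at an adjusted p of 0.1, and 422 (without HT shock replicate 1) to 2925 (without HT control replicate 6) on omitting 1 library. In HT shock against HT control the 0 calls became 2792 (16.3%) with library weights, 7 of 26 partner genes among them. Without HT control replicate 6 they became 2064 (12.1%, 5 of 26) and, with the correction in addition, 506 (2.95%, 2 of 26). Partner genes called after shock, 3 of 26 (9.28% of all genes), became 0 with the title block (2.63%) and 7 with library weights (22.1%). Omitting 1 library gave 0 to 5 (2.47% to 17.1%). The causes were not tested, and depth is unknown.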
